A study of Mus musculus with 16 samples.

Results

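The genes described here are Lama2, Lama4, Lama5, Lamb1, Lamb2, Lamc1, Nid1, Nid2, Hspg2 and Agrn, which were chosen by symbol as laminin chains and the proteins that bind laminin in basement membranes. They are 10 of the 47729 genes listed in each count table, and each symbol matched 1 gene. They were followed across ECs (endothelial cells), HSCs (hepatic stellate cells, the vitamin A storing pericytes of the sinusoid), KCs (Kupffer cells, the resident macrophages) and HEPs (hepatocytes), and between livers labelled KO and WT for endothelial Zeb2.

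A basement membrane is a thin sheet of extracellular matrix on which epithelia and vessel walls rest. Laminins form its first network as trimers of 1 alpha, 1 beta and 1 gamma chain, nidogens bridge that network to type IV collagen, and the heparan sulfate proteoglycans perlecan and agrin bind laminin, growth factors and cell surface receptors. Sinusoidal ECs of the liver are fenestrated and lack a continuous basement membrane, and the deposition of one is part of what is called capillarization.

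RNA was sequenced from unchallenged livers in 16 libraries, with 2 libraries for each cell type and genotype label. All mice, KO and WT, were males of 8 weeks that received tamoxifen, at 2 mg per day for 5 days, and RNA was taken 2 weeks later. KO livers carried floxed Zeb2 (exon 7 is flanked by loxP sites) and the tamoxifen-inducible Cdh5-CreERT2, and WT livers came from littermates without Cre. The HSCs had been sorted by their UV autofluorescence, KCs as UV-negative and F4/80-positive cells and ECs as UV-negative cells bearing the Pan-endo antigen, and HEPs had been taken by centrifugation. Cre was driven by the promoter of Cdh5, an endothelial cadherin, which was at 165 to 234 CPM (a gene's share of all counts on genes in a library, times 1e+06) in the 4 EC libraries and at 147 to 172 CPM in the 4 KC libraries. The sources used here do not state which libraries came from 1 liver, whether animals were pooled, or that replicates were separate animals. The p-values therefore measure spread between libraries, which may not be spread between animals. Each fit pooled that spread over all its groups and moderated it across genes.

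Zeb2 itself, the targeted gene, had 106 CPM in EC WT 34 and in EC WT 38, and 199 and 130 CPM in EC KO 6 and EC KO 46. The EC libraries labelled KO thus did not have fewer Zeb2 counts, and groups are called by their labels throughout. Cd34, a marker of capillary endothelium, had 71.3 and 61.3 CPM in EC WT and 231 and 194 CPM in EC KO, given without a test. It is 1 of 8 genes listed as large vessel endothelial markers, which did not move as a set. Of the 7 tested in ECs, 2 were higher and 2 lower in KO at an unadjusted p under 0.05 by edgeR. Their median log2 difference was -0.57, and 1 gene, higher in KO, passed the adjusted threshold. A gene count does not separate the floxed exon from the rest of the transcript. Zeb2 was at 410 to 538 CPM in HSCs, 235 to 314 CPM in KCs and 0.607 to 3.76 CPM in HEPs. Each labelled cell type carried its own markers. The 10 EC, 10 HSC, 10 KC and 15 hepatocyte markers had their highest summed level in the libraries of their own label, with none of them at 0 there. Marker RNA of other cell types was found in every library. The median hepatocyte marker stood at 10.8% and 22.1% of its level in hepatocytes for EC WT 34 and 38, at 2.41% and 1.93% for EC KO 6 and 46, at 3.22% and 7.33% for HSC WT 32 and 40, and at 0.486% and 1.08% for HSC KO 8 and 20. KC WT 31 stood apart from the other KC libraries, with Marco, a scavenger receptor of macrophages, at 9163 CPM against 368 to 670 CPM. Totals of 12872706 to 15690506 counts per library put a gene with 3 counts at 0.191 to 0.233 CPM, which is taken as the floor. In such bulk samples, fewer cells of a type and less RNA per cell cannot be told apart.

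The members lie on 8 chromosomes of GRCm38. The laminin alpha chain genes are Lama2 at chr10:26980036-27619758 on the minus strand, Lama4 at chr10:38965515-39110188 on the plus strand and Lama5 at chr2:180176373-180225859 on the minus strand. The beta and gamma chain genes are Lamb1 at chr12:31265234-31329644 (plus), Lamb2 at chr9:108479736-108490530 (plus) and Lamc1 at chr1:153218922-153332786 (minus). Nid1 lies at chr13:13437551-13512269 (plus), Nid2 at chr14:19751265-19811787 (plus), Hspg2 at chr4:137468769-137570630 (plus) and Agrn at chr4:156165290-156197488 (minus). Nid2 is the member whose exons overlap those of another protein-coding gene, 2700060E02Rik on the opposite strand, by 437 bases or 8.45% of its exon length. Counting with or without strand is not given in the sources used here. The neighbour had between 32.2 and 57.8 CPM in all 16 libraries, and Nid2 was at 0.135 to 5.10 CPM in HEP libraries where the neighbour was at 36.9 to 40.8 CPM.

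Promoters were available from RefSeq (GRCm38.p6) for 7 of the 10 members, as the 250 bases before and 50 after the start, on the strand of the gene. The windows of Lamb1, Hspg2 and Lama5 are shown because these genes had different sources, Lamb1 in HSCs, Hspg2 in ECs and Lama5 in both. Capitals mark GGGCGG, the GC box that Sp family factors bind, and CACCTG, the E2 box that Zeb2 is known to bind, each on either strand. The Lamb1 window is chr12:31265043-31265342, that of Hspg2 is chr4:137468553-137468852, and that of Lama5 is chr2:180225810-180226109.
Lamb1: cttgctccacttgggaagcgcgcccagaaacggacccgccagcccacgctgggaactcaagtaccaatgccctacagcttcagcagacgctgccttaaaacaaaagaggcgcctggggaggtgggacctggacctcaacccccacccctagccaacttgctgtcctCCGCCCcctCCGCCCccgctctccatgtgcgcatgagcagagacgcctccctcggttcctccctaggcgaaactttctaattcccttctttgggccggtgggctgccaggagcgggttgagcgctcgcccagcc
Hspg2: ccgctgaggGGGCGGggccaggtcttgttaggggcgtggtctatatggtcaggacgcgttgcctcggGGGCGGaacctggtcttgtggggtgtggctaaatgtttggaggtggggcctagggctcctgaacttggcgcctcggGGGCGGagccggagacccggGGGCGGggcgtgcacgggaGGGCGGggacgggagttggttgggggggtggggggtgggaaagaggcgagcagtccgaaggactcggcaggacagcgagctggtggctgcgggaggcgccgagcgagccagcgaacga
Lama5: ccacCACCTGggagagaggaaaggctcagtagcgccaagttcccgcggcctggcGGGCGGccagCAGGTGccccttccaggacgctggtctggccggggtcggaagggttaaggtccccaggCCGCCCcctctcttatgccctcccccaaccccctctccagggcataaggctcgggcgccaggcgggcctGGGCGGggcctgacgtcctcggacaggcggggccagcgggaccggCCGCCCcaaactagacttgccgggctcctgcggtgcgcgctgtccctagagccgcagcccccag
GGGCGG was found in 7 of the 8 promoter entries of members (Agrn has 2) and in 35.7% of all 32851 mouse entries, and Lamb2 was the member without it. CACCTG was found in 1 member, Lama5, at 2 positions, and in 20.2% of all entries. These are matches of letters and not measured binding sites.

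**Figure D1:**
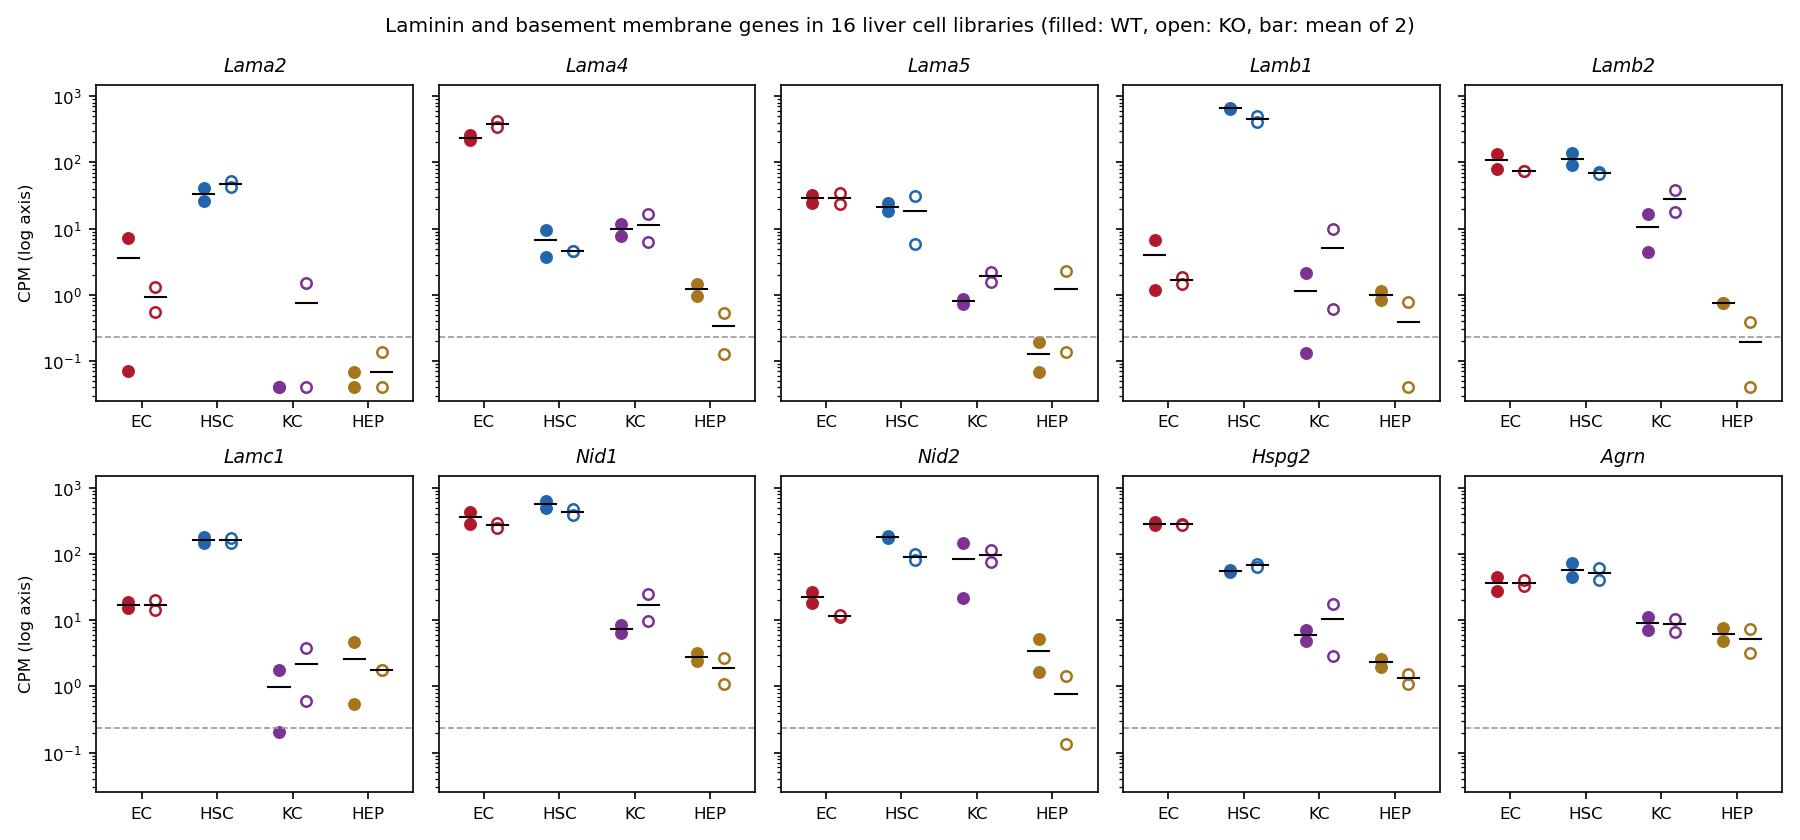
CPM (log axis) of the 10 members in 16 libraries, by cell type, with filled points for WT, open points for KO and bars for the mean of 2; the dashed line is the highest 3-count floor, 0.233 CPM, and libraries with 0 counts are drawn at the bottom. Lamb1 sits above 400 CPM in HSCs and below 10 CPM in the other cell types, and Lama4 above 200 CPM in ECs and below 17 CPM elsewhere.

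Which cell type each chain came from was asked first in the WT libraries. The laminin alpha chains split by cell type. Lama4, the alpha 4 chain of vessel walls, had 258 and 215 CPM in EC WT 34 and 38, 9.54 and 3.71 CPM in HSC WT 32 and 40, 7.78 and 11.9 CPM in KC WT 31 and 39, and 1.47 and 0.955 CPM in HEP WT 29 and 33. EC libraries were the highest in every case, 29.3-fold above HSCs by the edgeR fit (log2 difference of HSC minus EC -4.87 ± 0.52 SE, adjusted p 0.00122) and 18.9-fold above KCs (adjusted p 0.00146). The levels of HSCs and KCs overlapped.

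Lama2, the alpha 2 chain best known from muscle, had 41.2 and 25.8 CPM in HSC WT, 0.0698 and 7.22 CPM in EC WT, 0 counts in both KC WT libraries and 0 and 1 count in HEP WT. Its mean in HSCs was at least 169-fold above KCs, measured against a floor of 3 counts per library. As a ratio, the 2 EC libraries differed from each other by more than HSCs did from EC WT 38, and EC WT 34 held 1 count, under the floor. HSCs were not called against ECs (log2 difference 3.53 ± 1.42 SE, adjusted p 0.169). Without EC WT 38 the log2 difference was 9.01, which rests on that 1 count. Lama5, the alpha 5 chain of vascular and epithelial membranes, was at 32.4 and 24.7 CPM in EC WT, 24.3 and 18.3 CPM in HSC WT, 0.872 and 0.718 CPM in KC WT and 0.191 and 0.0682 CPM in HEP WT, the last at or under the floor. ECs and HSCs did not differ beyond their spread in Lama5 (log2 difference -0.15 ± 0.44 SE, adjusted p 0.873), and both lay over KCs (adjusted p 0.0012 and 0.000948).

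The beta chains showed the sharpest contrast. Lamb1, the beta 1 chain, had 649 and 656 CPM in HSC WT against 6.70 and 1.17 CPM in EC WT, 0.134 and 2.15 CPM in KC WT and 0.829 and 1.16 CPM in HEP WT. It was 196-fold higher in HSCs than in ECs (log2 difference 7.61 ± 1.14 SE, adjusted p 0.00538), and ECs, KCs and HEPs were not called apart. Lamb2, the beta 2 chain, was shared: EC WT had 135 and 79.2 CPM, HSC WT 137 and 91.7 CPM, KC WT 4.36 and 16.7 CPM and HEP WT 0.765 and 0.750 CPM. Its levels in HSCs and ECs overlapped (log2 difference 0.36 ± 0.54 SE, adjusted p 0.718), ECs lay 8.29-fold above KCs (adjusted p 0.0102), and KCs 6.73-fold above HEPs (adjusted p 0.0112).

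Lamc1, the gamma 1 chain found in most laminin trimers, was highest in HSCs, with 147 and 182 CPM in HSC WT, 18.6 and 15.1 CPM in EC WT, 0.201 and 1.76 CPM in KC WT and 4.72 and 0.546 CPM in HEP WT. The HSCs lay 11.8-fold above ECs (log2 difference 3.56 ± 0.88 SE, adjusted p 0.0420). That call was lost when any 1 of the 4 libraries, EC WT 34, EC WT 38, HSC WT 32 or HSC WT 40, was left out, with a log2 difference of 3.45 to 3.89 and an adjusted p of 0.0892 to 0.203.

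The nidogens differed in their sources too. Nid1 had 500 and 626 CPM in HSC WT, 430 and 282 CPM in EC WT, 8.52 and 6.33 CPM in KC WT and 2.42 and 3.20 CPM in HEP WT, and HSCs and ECs were not called apart (log2 difference 0.93 ± 0.37 SE, adjusted p 0.158). Nid2 had 184 and 173 CPM in HSC WT, 21.9 and 143 CPM in KC WT, 26.4 and 18.3 CPM in EC WT and 5.10 and 1.64 CPM in HEP WT. It was 9.61-fold higher in HSCs than in ECs (log2 difference 3.27 ± 0.80 SE, adjusted p 0.0394), a call that was lost without any 1 of those 4 libraries (log2 difference 3.07 to 3.74, adjusted p 0.0766 to 0.200). Per exon length Nid2 was the highest member in KCs, and KC WT 31, the library that stood apart, held much less of it than the other KC libraries, which had 74.6 to 143 CPM. Against ECs, Nid2 in KCs was not called with that library (log2 difference of EC minus KC -2.16, adjusted p 0.0936) and was called without it (-2.93, adjusted p 0.0169).

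The mRNAs of both proteoglycans were found in ECs and HSCs. Hspg2, which encodes perlecan, had 273 and 299 CPM in EC WT, 53.5 and 57.2 CPM in HSC WT, 4.76 and 7.05 CPM in KC WT and 2.61 and 1.98 CPM in HEP WT, and ECs lay 4.25-fold above HSCs (log2 difference of HSC minus EC -2.09 ± 0.26 SE, adjusted p 0.00257). Agrn, which encodes agrin, had 71.7 and 44.2 CPM in HSC WT, 44.9 and 27.1 CPM in EC WT, 7.18 and 11.0 CPM in KC WT and 7.58 and 4.84 CPM in HEP WT. It reached at least 8.36% of its HSC mean in every WT library, and HSCs and ECs overlapped (log2 difference 0.96 ± 0.42 SE, adjusted p 0.189).

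Counted over the WT comparisons, 3 members (Lamb1, Lamc1, Nid2) were higher in HSCs than in ECs, where 5.33% of all 15979 genes tested were, and 2 (Lama4, Hspg2) were higher in ECs, where 4.88% were. Against KCs, 8 members were higher in HSCs (background 11.7%) and 0 in KCs (9.47%), and 7 were higher in ECs (9.23%) and 0 in KCs (8.05%). Against HEPs, 9 members were higher in HSCs (22.9%), 5 in ECs (23.2%) and 3, namely Lama4, Lamb2 and Nid2, in KCs (20.5%), and 0 were higher in HEPs in any of these (18.9%, 20.4% and 20.1%). The median log2 difference of the members was 0.94 for HSCs against ECs, beside -0.0024 over all genes, and 5.41 for ECs against HEPs, beside 0.29 over all genes. Scaling by library totals in place of TMM moved the median of all genes by 0.978 to 1.33 on the log2 scale in comparisons with HEPs and by -0.28 for HSCs against ECs, where it left 3 of the 5 member calls (Lamc1 and Nid2 at adjusted p 0.0667 and 0.0669). The direction between KCs and HEPs for Lamb1 and Agrn turned with that scaling. Other calls rested on single libraries too. Against KCs, that of Lama2 in HSCs was lost without KC WT 31 or KC WT 39 (adjusted p 0.0666 and 0.0568), that of Lamb2 in ECs without EC WT 34 (0.0580), that of Lamc1 in ECs without EC WT 34, EC WT 38 or KC WT 31 (0.0766 to 0.121), and that of Agrn in ECs without any 1 of the 4 libraries (0.0520 to 0.243). Against HEPs, that of Lama2 in HSCs was lost without HEP WT 29 or HEP WT 33 (0.0812 and 0.0673), as was that of Lamb2 in KCs (0.0640 and 0.0583), and those of Lama4 and Nid2 in KCs were lost without HEP WT 33 (0.0861 and 0.0633).

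The 8 libraries labelled KO gave a separate set for the same contrast. Among them Lamb1 (log2 difference of HSC minus EC 8.31, adjusted p 0.00977), Lamc1 (3.48, adjusted p 0.0143) and Nid2 (3.19, adjusted p 0.0140) were again higher in HSCs and Lama4 (-6.13, adjusted p 0.0012) again higher in ECs. Lama2 was called there as well (5.86, adjusted p 0.0316), and Hspg2 was not (-1.81, adjusted p 0.124). Against the other cell types, the KO-labelled libraries did not give the WT calls of Lama5, with a log2 difference of 3.64 for ECs against KCs (adjusted p 0.0646), 3.29 for HSCs against KCs (0.0712), 3.43 for ECs against HEPs (0.0504) and 3.07 for HSCs against HEPs (0.0674). Nor did they give those of Lamb2 against KCs, at 1.05 for ECs (adjusted p 0.215) and 1.21 for HSCs (0.144).

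Low levels of a member outside its main cell type can be read beside the markers of that cell type in the same library. In the EC WT libraries Lamb1 was at 1.03% and 0.179% of its HSC level, where the median HSC marker was at 1.31% and 2.02%. Lama4 in HSC WT, at 4.03% and 1.57% of its EC level, lay near the median EC marker at 3.73% and 1.91%. The same held for Lama4 in KC WT, with 3.29% and 5.04% beside 2.42% and 4.31%, and in HEP WT, with 0.619% and 0.403% beside 0.651% and 0.533%. Hspg2 in KC WT, with 1.67% and 2.47%, lay under the EC marker median of 2.42% and 4.31% in the same libraries. The members named next stood over the median marker, while single HSC markers reached 11.9% and 16.9% in EC WT and single EC markers 17.6% and 11.1% in HSC WT. Lamc1 in EC WT was at 11.3% and 9.22% and Nid2 at 14.8% and 10.2% of their HSC levels, and Hspg2 in HSC WT was at 18.7% and 20.0% of its EC level. Nid2 in KC WT was at 12.3% and 80.5% of its HSC level, beside HSC markers at 0.63% and 0.326%, and Agrn in HEP WT at 13.1% and 8.36%, beside HSC markers at 0.214% and 0.242%.

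**Figure D2:**
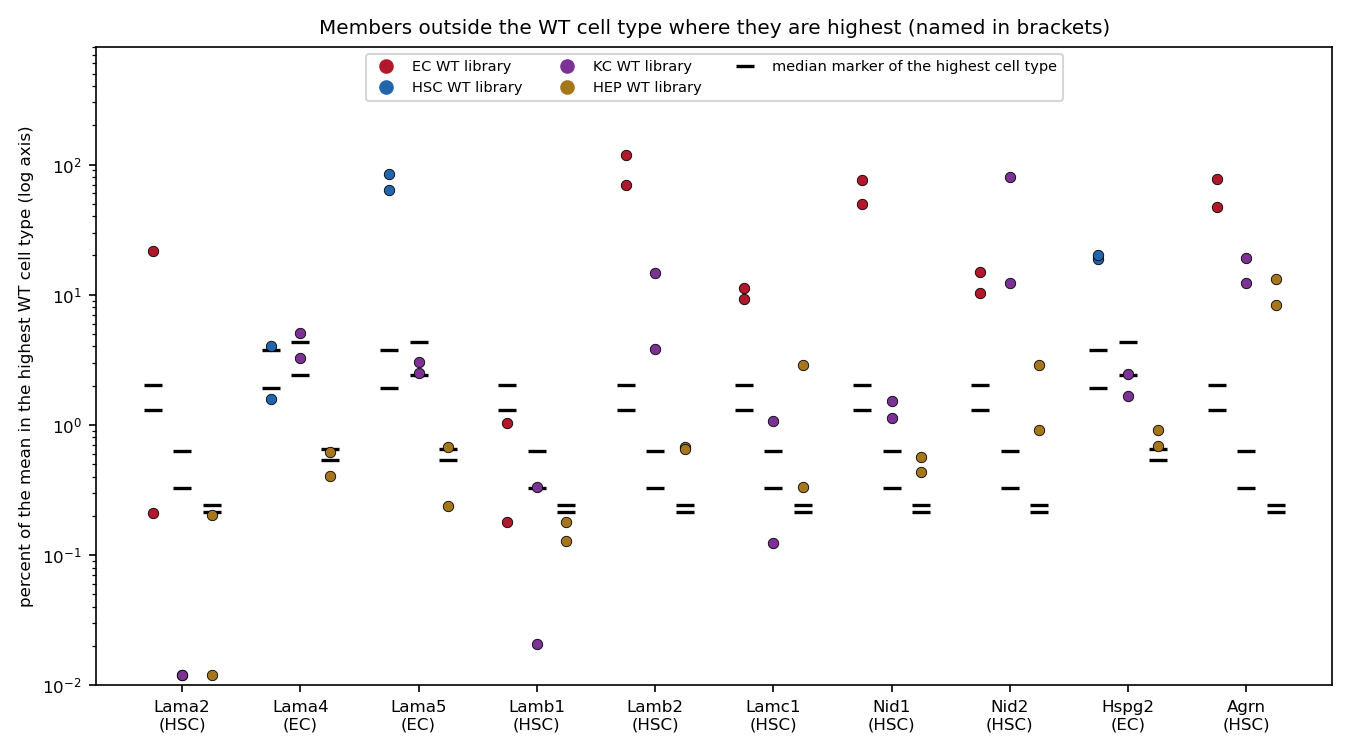
Level of each member in the WT libraries of the 3 other cell types, as a percent of its mean in the WT cell type where it is highest (named in brackets, log axis); points are libraries and black bars the median of the 10 markers of that highest cell type in the same library. Lama4 and Lamb1 lie near or under the marker bars, and Nid2 in KCs and Agrn in HEPs lie far above them.

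Levels of different genes were compared only per exon length, as RPKM (CPM divided by exon length in kilobases). By the union of exons, Nid1 was the highest member in both WT HSCs, at 81.1 ± 12.8 RPKM (SD, n = 2), and WT ECs, at 51.3 ± 15.1 RPKM. In HSCs it was followed by Lamb1 (65.8 ± 0.48 RPKM) and Nid2 (34.4 ± 1.53 RPKM). In ECs it was followed by Hspg2 (20.0 ± 1.28 RPKM) and Lama4 (19.6 ± 2.51 RPKM), whose levels overlapped. This order depends on the length used. By the longest transcript, Lamb1 (5784 bases, mean 652 CPM) would lie over Nid1 (6091 bases, mean 563 CPM) in WT HSCs. Lama4 would lie over Hspg2 in WT ECs, with longest transcripts of 6046 and 14187 bases and unions of 12068 and 14307 bases. Nid1 exceeded Nid2 per length by 12.1 and 11.5 times in the EC WT libraries and by 2.03 and 2.70 times in HSC WT, while in KC WT the ratio was 0.289 and 0.0329, so that Nid2 was the main nidogen mRNA of KCs.

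The make-up of laminin was read from the chains per length. In EC WT, Lama4 made up 84.7% and 82.7% and Lama5 11.3% and 10.1% of all alpha chain RPKM over Lama1 to Lama5, and Lamb2 made up 94.7% and 92.9% of the beta chains. In HSC WT the largest alpha chain was none of the members but Lama1, with 79.9% and 87.5%, ahead of Lama2 with 9.14% and 5.53% and Lama5 with 7.73% and 5.63%, and Lamb1 made up 74.4% and 81.1% of the beta chains. With the longest transcript in place of the union of exons, the shares from the group means were 90.8% for Lama4 in ECs and 78.5% for Lama1 in HSCs. Lamc1 held 78.7% to 92.3% of the gamma chains in EC WT and 94.3% to 98.6% in HSC WT. The sums of the classes differed within both cell types. In EC WT the gamma chains summed to 2.85 and 1.98 RPKM and the alpha chains to 25.3 and 21.6 RPKM, a ratio of 0.113 and 0.092. In HSC WT the sums were 18.8 and 22.3 RPKM for gamma and 27.6 and 28.5 RPKM for alpha, a ratio of 0.683 and 0.781. The ratio of beta to alpha chains was 0.930 and 0.649 in EC WT and 3.19 and 2.86 in HSC WT. The sums and ratios used the union of exons and would change with the longest transcript. All are mRNA levels, and protein was not measured here.

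**Figure D3:**
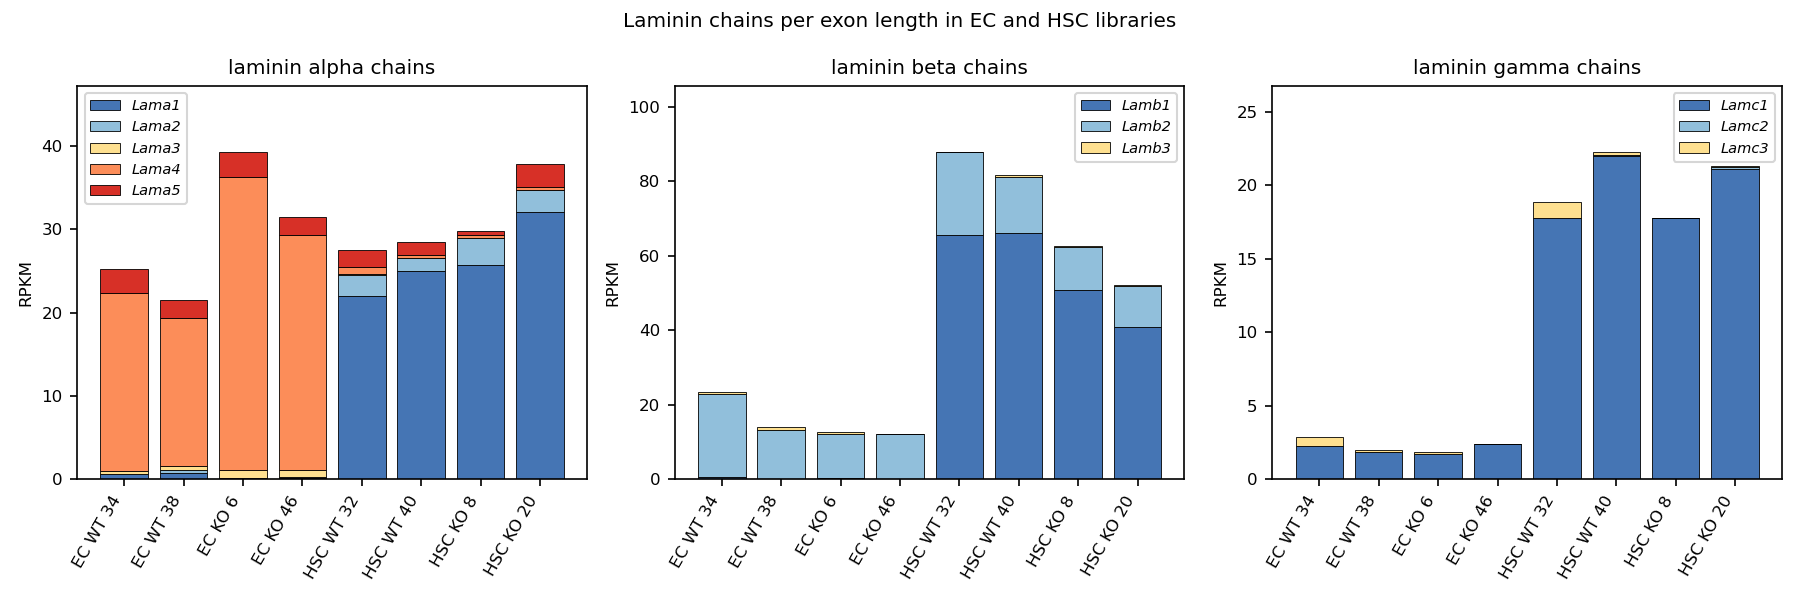
RPKM (CPM per kilobase of exon) of the laminin alpha, beta and gamma chains in the 8 EC and HSC libraries, 1 stacked bar per library on 3 different scales. Lama4 and Lamb2 fill the EC bars, Lama1 and Lamb1 the HSC bars, and the gamma sums reach 2.85 RPKM in ECs and 22.3 RPKM in HSCs.

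The libraries labelled KO and WT for endothelial Zeb2 were compared within each cell type. By edgeR 0 members passed an adjusted p of 0.05 in any of the 4 cell types, beside 305 of 14631 genes (2.08%) in ECs and 0 genes (0%) in HSCs, KCs and HEPs. At an unadjusted p under 0.05 there were 2 of 10 members in ECs, 3 of 10 in HSCs, 0 of 9 in KCs and 0 of 8 in HEPs. Over all genes tested, 2192 of 14631 genes in ECs and 1259 of 14390 in HSCs had such a p. In KCs it was 706 of 13867 genes and in HEPs 821 of 11548. At an adjusted p under 0.05 by DESeq2, the counts were 983 genes in ECs, 408 in HSCs, 72 in KCs and 32 in HEPs. DESeq2 called 1 member, Nid2 in HSCs.

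In ECs, Lama4 and Nid2 had the lowest p-values. Lama4 had 258 and 215 CPM in EC WT and 425 and 341 CPM in EC KO, so that both KO libraries lay above both WT libraries. The log2 difference of KO minus WT was 0.69 ± 0.23 SE (1.61-fold, adjusted p 0.247, DESeq2 0.084) and stayed between 0.54 and 0.87 when each library was left out in turn. The share of Lama4 among the alpha chains was 89.4% and 89.8% in EC KO. Nid2 had 26.4 and 18.3 CPM in EC WT and 11.3 and 11.8 CPM in EC KO, without overlap, a log2 difference of -0.95 ± 0.34 SE (adjusted p 0.270). HSC markers moved alongside, with a median of 1.31% and 2.02% of their HSC level in EC WT and 0.563% and 0.785% in EC KO, and 0 of these 10 markers was called, with 8 lower at an unadjusted p under 0.05. KC markers went the other way, with a median of 1.53% and 0.933% of their KC level in EC WT and 2.04% and 1.87% in EC KO. Nid2 was at 21.9 and 143 CPM in KC WT. The part of HSC or KC RNA in the Nid2 difference was not tested. Lamb2 did not overlap either, with 135 and 79.2 against 73.2 and 72.9 CPM (adjusted p 0.455).

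The other 7 members overlapped between genotypes in ECs. Hspg2 was at 273 and 299 CPM in EC WT and 282 and 273 CPM in EC KO (log2 difference -0.04 ± 0.21 SE, adjusted p 0.957), and Nid1 at 430 and 282 against 291 and 249 CPM (-0.41 ± 0.28 SE, adjusted p 0.560). Lama5, Lamc1 and Agrn had log2 differences of 0.02 to 0.03. That 3 of 10 members did not overlap compares with 48.5% of all genes tested in ECs, and the members' median log2 difference was -0.22, beside -0.01 over all genes.

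In HSCs, Nid2 had 184 and 173 CPM in HSC WT 32 and 40, and 98.5 and 81.7 CPM in HSC KO 8 and 20. All KO values lay under all WT values, and the log2 difference of KO minus WT was -1.01 ± 0.20 SE, which is 2.01-fold lower. edgeR gave it an adjusted p of 0.330 and DESeq2 0.00511, and without a filter on low counts edgeR gave 0.0175, while a fit of all 16 libraries gave 0.889. It lay between -1.08 and -0.95 when each library was left out. Hepatocyte and EC markers were also lower in HSC KO, the latter with a median of 3.73% and 1.91% of their EC level in HSC WT and 1.16% and 1.55% in HSC KO. Nid2 itself was at 1.64 and 5.10 CPM in HEP WT and at 18.3 and 26.4 CPM in EC WT. The median KC marker was at 4.30% and 0.917% of its KC level in HSC WT and at 1.05% and 5.10% in HSC KO, with no order by genotype. The part of these cell types in the Nid2 difference was not tested.

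The beta chains were lower in HSC KO libraries as well, without passing the test. Lamb1 had 649 and 656 CPM in HSC WT and 502 and 406 CPM in HSC KO (log2 difference -0.55 ± 0.20 SE, adjusted p 0.541), and Lamb2 had 137 and 91.7 against 71.1 and 66.9 CPM (-0.75 ± 0.26 SE, adjusted p 0.504). Nid1, at 500 and 626 against 476 and 387 CPM, also showed no overlap (-0.41 ± 0.22 SE, adjusted p 0.704). Lama2, with 41.2 and 25.8 against 52.1 and 42.9 CPM, and Hspg2, with 53.5 and 57.2 against 70.4 and 63.9 CPM, had the opposite order (adjusted p 0.752 and 0.801). Lamc1 was at 147 and 182 CPM in HSC WT and 147 and 175 CPM in HSC KO (log2 difference -0.04 ± 0.23 SE). In all, 6 of 10 members did not overlap between genotypes, beside 40.5% of all genes, and the members' median was -0.30, beside 0.02 over all genes. Per length, the beta chains summed to 87.9 and 81.5 RPKM in HSC WT and 62.6 and 52.0 RPKM in HSC KO, and the ratio of Nid1 to Nid2 was 2.03 and 2.70 in HSC WT and 3.60 and 3.54 in HSC KO, which are given without a test.

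In KCs, 9 members were tested and 8 had a higher estimate in KO, with a median log2 difference of 1.11 beside -0.02 over all genes. Lamb2 had 4.36 and 16.7 CPM in KC WT 31 and 39 and 17.9 and 38.8 CPM in KC KO 27 and 43 (log2 difference 1.44 ± 0.69 SE, adjusted p 0.933), and Nid1 had 8.52 and 6.33 against 24.5 and 9.54 CPM (1.11 ± 0.57 SE, adjusted p 0.933). Nid1, Lama5 and Lamb2, 3 of the 9, did not overlap, beside 37.3% of all genes. Without KC WT 31 the difference was 0.83 for Lamb2, 1.46 for Nid1 and -0.54 for Nid2. Markers of other cell types moved alongside. The median EC marker was at 2.42% and 4.31% of its EC level in KC WT and 5.43% and 5.24% in KC KO, the median HSC marker at 0.63% and 0.326% of its HSC level and then 1.29% and 0.567%, and the 10 smooth muscle and portal fibroblast markers summed to 63.7 to 74.5 CPM and then 104 to 204 CPM. Their part in these differences was not tested.

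In HEPs, the 8 members tested all had a lower estimate in KO, with a median log2 difference of -1.02 beside -0.02 over all genes, at levels of 0 to 7.58 CPM in every library. Nid2 had 5.10 and 1.64 CPM in HEP WT 29 and 33 and 1.42 and 0.135 CPM in HEP KO 25 and 41 (-2.05 ± 1.08 SE, adjusted p 0.718). Lamb1, Lamb2, Lama4, Nid2 and Hspg2, 5 of the 8, did not overlap, beside 40.8% of all genes. Here too the median EC marker moved, from 0.651% and 0.533% of its EC level in WT to 0.335% and 0.257% in KO, and its part was not tested. Agrn had 7.58 and 4.84 against 7.28 and 3.23 CPM (log2 difference -0.19 ± 0.49 SE).

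Tests of whether the genotype difference itself differed between 2 cell types, over all 16 libraries, called 0 members in any of the 6 pairs of cell types by edgeR. At an unadjusted p under 0.05 there were between 0 and 3 of 10 members per pair, beside 835 to 2403 of all 17214 genes. The pair with 3 members, ECs and KCs, was the pair with 2403 genes. The lowest such p-values belonged to Lamb2 between KCs and HEPs (log2 difference of the differences 3.30 ± 1.15 SE, adjusted p 0.518) and Lama4 between ECs and HEPs (2.42 ± 0.89 SE, adjusted p 0.360). A liver may have given libraries of more than 1 cell type, and these tests treat them as independent.

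**Figure D4:**
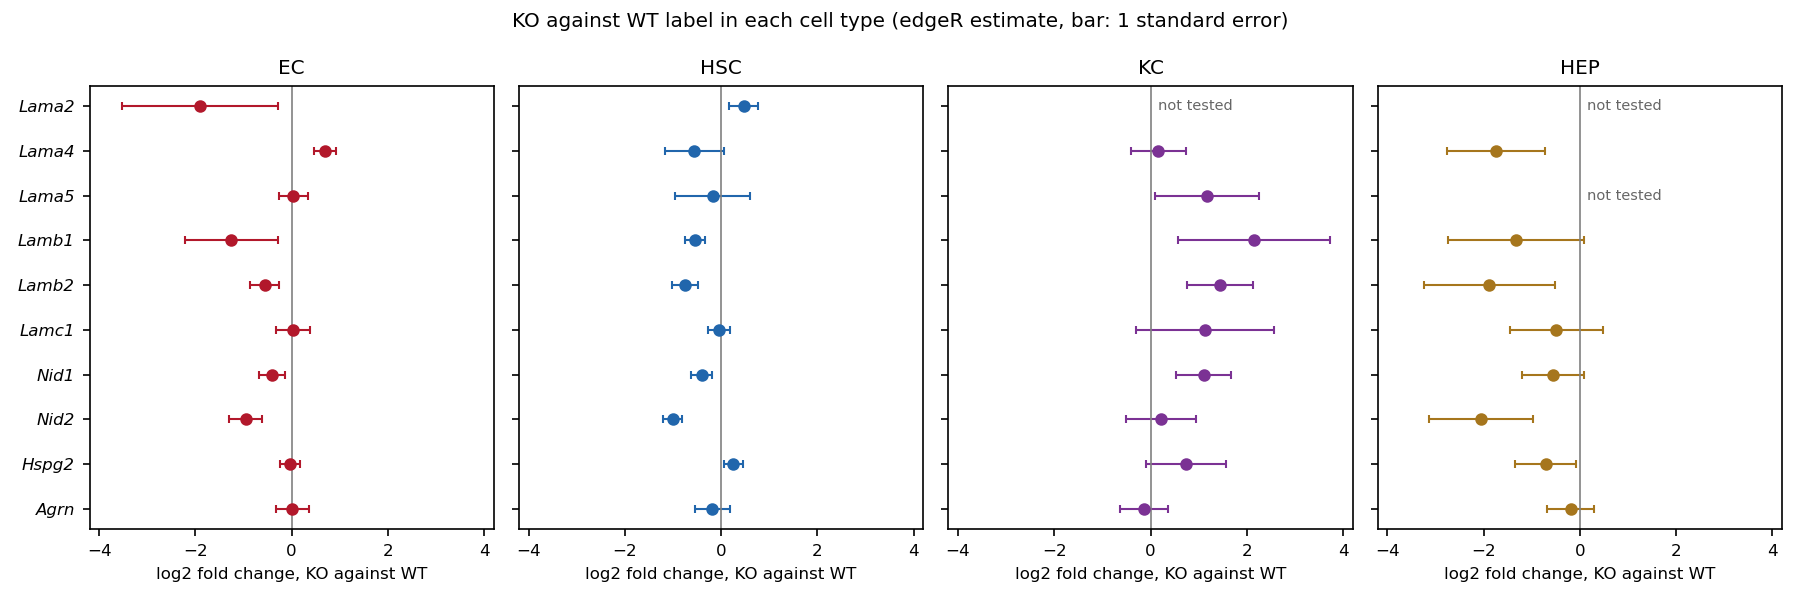
Log2 fold change of KO against WT for each member in ECs, HSCs, KCs and HEPs (edgeR estimate, bar 1 standard error, 2 libraries per group). None passed the test. Estimates far from 0 relative to their bars include Lama4 (0.69) and Nid2 in ECs, and Nid2 (-1.01), Lamb1 and Lamb2 in HSCs. Lama2 was not tested in KCs and HEPs, nor Lama5 in HEPs.

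The partners of the members were followed in 6 lists of 74 genes. In WT, 17 of 70 tested list genes were higher in HSCs than in ECs, where 5.33% of all genes were, and 2 were higher in ECs, where 4.88% were. Of the other laminin and netrin chains, 2 of 6 were higher in HSCs and 0 in ECs (median log2 difference -0.37), with Ntn1, a netrin, at 46.8 RPKM and Lama1 at 23.5 RPKM leading in HSCs and Ntn4, a netrin that binds laminin, at 3.16 RPKM leading in ECs. Lamc3 came after them in HSCs at 0.657 RPKM, and Ntn1 (2.39 RPKM) and Lamb3 (0.720 RPKM) after Ntn4 in ECs. Of the basement membrane collagens, 0 of 8 differed (median 0.82). Col4a1 and Col4a2, the chains of the common type IV collagen, were at 79.4 and 57.8 RPKM in HSCs and 43.7 and 49.3 RPKM in ECs. Col18a1 followed at 6.77 RPKM in HSCs and 13.4 RPKM in ECs. Its highest WT level was in HEPs, at 675 and 494 CPM, and the part of hepatocyte RNA in its EC level was not tested. Of 16 other basement membrane proteins, 5 were higher in HSCs and 2 in ECs (median 0.53). Tinagl1, a matrix protein that binds laminin, was at 435 RPKM in ECs against 73.8 RPKM in HSCs (log2 difference of HSC minus EC -2.29, adjusted p 0.0193), Egfl7, secreted by endothelium, at 216 RPKM in ECs (-4.06, adjusted p 0.00054), and Smoc2 at 54.3 RPKM in HSCs (5.55, adjusted p 0.000878). Sparc, a collagen-binding matrix protein, was the highest list gene in both, at 1339 RPKM in HSCs and 1156 RPKM in ECs.

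Among laminin and basement membrane receptors, 3 of 14 were higher in HSCs and 0 in ECs (median 1.38), and Itgb1, the beta 1 integrin, led in both at 218 and 81.2 RPKM, without being called (adjusted p 0.0911). The syndecans followed, Sdc4 at 179 RPKM in HSCs and 79.5 RPKM in ECs (log2 difference 1.46, adjusted p 0.0437) and Sdc3 at 52.7 and 25.7 RPKM (adjusted p 0.148). Sdc4 had its highest WT level in HEPs, and the part of hepatocyte RNA in its EC and HSC levels was not tested. Of the heparan sulfate enzymes, 2 of 14 were higher in HSCs and 0 in ECs (median -0.05), among them Hpse, heparanase, at 149 RPKM in HSCs and 20.3 RPKM in ECs (log2 difference 3.14, adjusted p 0.00181) and Extl3 at 5.98 RPKM in HSCs (4.03, adjusted p 0.0158). Ext2, a heparan sulfate polymerase, was at 42.3 RPKM in HSCs and 30.8 RPKM in ECs, where it led and Xylt2 came after Hpse at 10.1 RPKM. Of the enzymes that build the laminin-binding glycan of dystroglycan, 5 of 12 were higher in HSCs and 0 in ECs (median 0.91), led by B4gat1 at 48.3 RPKM in HSCs and 27.3 RPKM in ECs (1.10, adjusted p 0.0281). Pomk was at 8.85 RPKM in HSCs (2.84, adjusted p 0.0484) and Tmem5 at 5.52 RPKM in ECs.

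Between genotypes, 2 of 64 tested list genes were called in ECs and 0 in HSCs (68 tested), KCs (61) and HEPs (49) by edgeR, beside 2.08% of all genes in ECs. Both were lower in EC KO. Col18a1, the chain of collagen XVIII from which endostatin is cut, had 82.9 and 106 CPM in EC WT and 10.0 and 5.91 CPM in EC KO (log2 difference -3.57 ± 0.32 SE, adjusted p 0.0190), and Sdc4 had 174 and 231 against 79.7 and 63.5 CPM (-1.50 ± 0.23 SE, adjusted p 0.0366). Each had its highest WT level in HEPs, Col18a1 at 675 and 494 CPM and Sdc4 at 857 and 736 CPM, and hepatocyte markers were higher in EC WT than in EC KO by the values given above. The part of hepatocyte RNA in both differences was not tested. Col4a1, with 374 and 279 against 234 and 257 CPM, and Col4a2, with 328 and 325 against 283 and 350 CPM, were not called in ECs. Col18a1 belonged to the 857 genes enriched in hepatocytes, and none of the 10 members did.

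**Figure D5:**
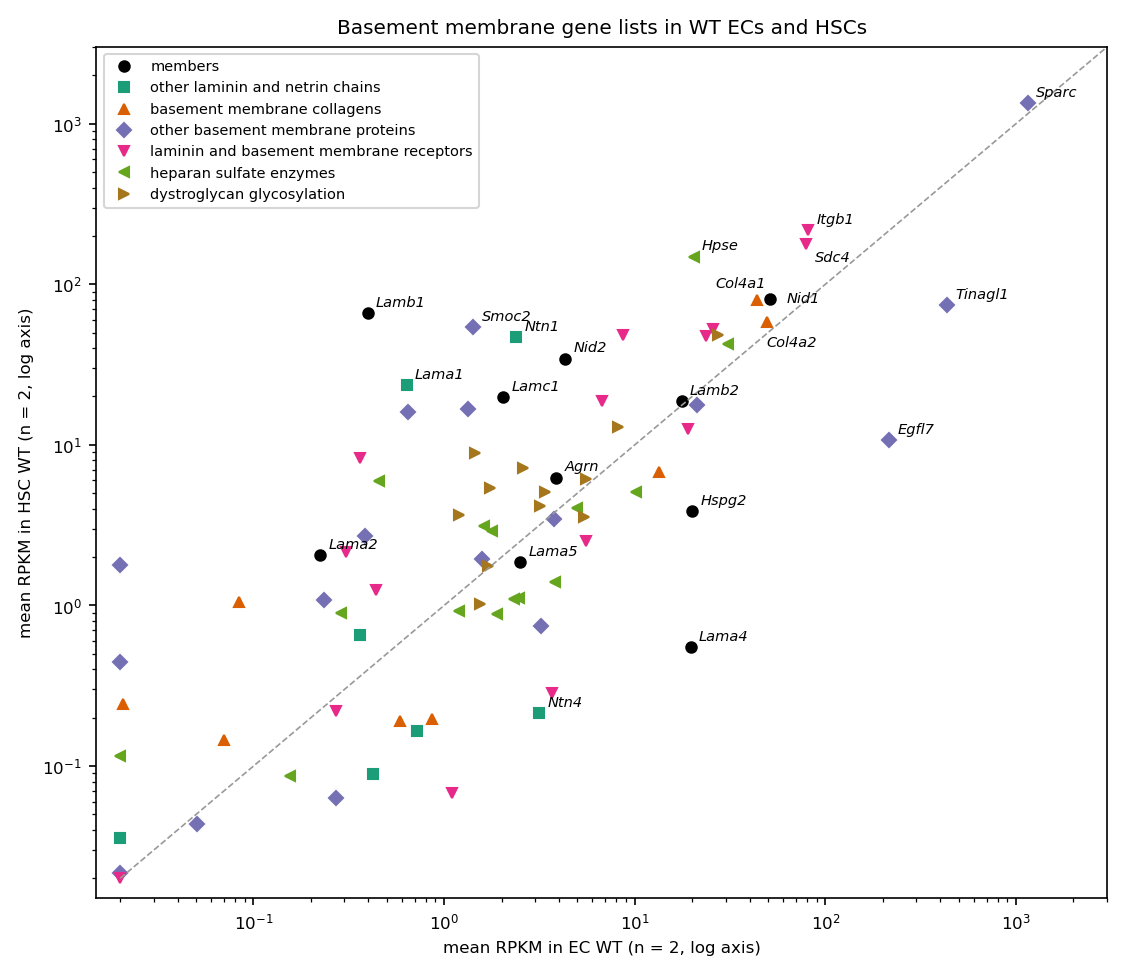
Mean RPKM in WT ECs against WT HSCs (n = 2 each, log axes) for the members and the 6 lists, with equal levels on the dashed line and values under 0.02 RPKM drawn at 0.02. Lamb1, Lamc1, Nid2, Lama1 and Ntn1 lie on the HSC side, Lama4, Hspg2, Tinagl1 and Egfl7 on the EC side, and Nid1, Lamb2, Agrn, Col4a1 and Col4a2 near the line.

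Across the 16 libraries, the genes most like each member were found by Pearson's r of log2 CPM over 17213 other genes. For Lama4 they were Kank3 and Flt4 (a VEGF receptor), with r of 0.985 and 0.983. Nid1 was nearest to Sparc, Emilin1 and Trp53i11 (0.990 to 0.991), Lamb1 to Ednra (an endothelin receptor) and Igfbp3 (0.974 and 0.971), and Lama2 to Tet1, Msi2 and Nfatc4 (0.966 to 0.973). For Hspg2 they were Clec14a, C1qtnf1 and Gm27477 (0.983 to 0.985), for Nid2 Mamld1 and Flna (0.973 and 0.968), and for Lamc1 Pfkm, Masp1 and Vcl (0.965 to 0.979). Lamb2 was nearest to Erbb2, Cyth3 and Myo1c (0.984 for each), Agrn to Fkbp9, Tmem47 and Ccdc80 (0.973 to 0.976), and Lama5 to Gm8292, 9430020K01Rik and Hoxb4 (0.952 to 0.956). Between members, r ran from 0.01 for Lama4 with Lamb1 to 0.96 for Nid1 with Agrn. The 16 points fall into 4 cell types with 4 libraries each, so these values describe the cell types more than the libraries within them.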

How the data were processed

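RNA of sorted mouse liver ECs, HSCs and KCs and of hepatocytes was sequenced in 16 libraries. For each library the authors deposited 1 table of raw read counts per Ensembl gene, without normalization. The submitters' processing notes name Trimmomatic 0.32, HISAT2 2.1.0, HTSeq 0.9.1, edgeR and GRCm38. Mouse age, sex and the time of collection come from the study's methods, and the tamoxifen dose from the labels. The annotation release and the strand setting are not given in the sources used here, and the series text (Smart-seq2) and the sample text (TruSeq stranded mRNA) name different library preparations. The 5 HTSeq summary lines were left out of totals. No library was a copy of its partner, since the mean chi-square per gene within groups was 29.6 to 109. CPM used the total counts on genes, and RPKM also the union of exons in GENCODE M21, which holds 98.9% of the gene identifiers.

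KO and WT were compared within each cell type, and cell types among the 8 WT libraries, with edgeR 4.0.16 in R 4.3.3 (filterByExpr, TMM, quasi-likelihood test, Benjamini-Hochberg over all genes tested, threshold 0.05). Differences between genotype effects were contrasts over all 16 libraries. Adjusted p-values are from edgeR unless DESeq2 is named. Each SE is the absolute log2 difference divided by the square root of the F statistic of the quasi-likelihood test. Scripts were tested on simulated data. The members and lists were chosen with earlier results of these data known. All members are named. List genes are named when past the threshold between genotypes (up to 5 per list) or among the 3 highest per length in WT HSCs or ECs, as are the 3 genes most like each member, except that some items are not reported here. Ntn4 and Lama1 fall under that rule, and Cdh5, Marco and Cd34 were named after their values were seen. Alternatives were DESeq2 1.42.0, RLE size factors, library totals alone, no filter, all 16 libraries in 1 fit, leaving out hepatocyte-enriched genes (at least 10 CPM in WT hepatocytes and 8 times the KC level), the libraries labelled KO in place of WT, the longest transcript, and leaving out each library. Python 3.11.15 with matplotlib 3.10.9 drew the figures.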

Additional observations from a re-analysis of the deposited data

How the results depend on the processing

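Between genotypes 0 members were called under each setting run, except that DESeq2 called 1 member in HSCs, Nid2, as did edgeR with no low-count filter. Genes called in ECs numbered 983 by DESeq2, 190 with library totals alone, 1259 without a filter and 0 without hepatocyte-enriched genes, against 305, and 3 to 688 when each library was left out (688 without EC WT 34, 58 without EC KO 6 and 3 without EC KO 46). In HSCs they numbered 408 by DESeq2, 663 without a filter and 178 in 1 fit of all libraries, in KCs 72 and 159 and in HEPs 32 and 227 by DESeq2 and without a filter, against 0 in each, and 0 to 12 in KCs and 0 to 55 in HEPs when each library was left out. Estimates near 0 turned: without hepatocyte-enriched genes Lama5, Lamc1 and Agrn in ECs were at -0.0106, -0.0255 and -0.0259.

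Leaving out each library turned the KO difference in ECs of Agrn (-0.32 to 0.47), Hspg2 (-0.0637 to 0.0061), Lama2 (-2.87 to 3.59), Lama5 (-0.19 to 0.28), Lamb1 (-2.03 to 0.55) and Lamc1 (-0.32 to 0.31), in HSCs of Agrn (-0.60 to 0.22), Lama4 (-1.09 to 0.30), Lama5 (-1.97 to 0.60) and Lamc1 (-0.25 to 0.13), in KCs of Agrn (-0.46 to 0.13), Hspg2 (-1.02 to 1.5025), Lama4 (-0.65 to 0.67), Lamb1 (-0.84 to 4.99), Lamc1 (-0.63 to 3.20) and Nid2 (-0.54 to 1.95), and in HEPs of Agrn (-0.80 to 0.25) and Lamc1 (-1.31 to 1.68). In WT it turned Lama5 (-0.31 to 0.25) for HSCs against ECs, Lama2 (-0.13 to 8.38) and Lamb1 (-1.13 to 1.52) for ECs against HEPs, and Lamb1 for ECs against KCs (-0.48 to 4.23) and KCs against HEPs (-3.50 to 0.0202). None of these was called with all libraries.

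In WT, genes called for HSCs against ECs numbered 2970 by DESeq2, 3252 without a filter and 785 to 846 with a library left out, against 1630, and with a library left out 1751 to 2885 against 3391 (HSCs, KCs), 4211 to 5034 against 6683 (HSCs, HEPs) and 1503 to 2328 against 2762 (ECs, KCs). Members called were 3 of 5 with library totals and 3 to 4 with a library left out (HSCs, ECs), 9 against 5 with library totals and without a filter (ECs, HEPs), and 6 against 3 with library totals and 1 to 4 with a library left out (KCs, HEPs). In the libraries labelled KO, Nid2 for HSCs against KCs was at -0.14, Lamb1 for ECs against KCs at -1.89, and for KCs against HEPs Lama5 was at -0.22 and Lamb1 at 2.81. With library totals Lamb1 was at 0.21 and Agrn at 0.55 for KCs against HEPs. For differences of genotype effects, leaving out hepatocyte-enriched genes changed the genes called from 6 to 1 (HSCs, ECs), 102 to 0 (HSCs, KCs), 13 to 0 (HSCs, HEPs), 357 to 7 (ECs, KCs) and 12 to 1 (ECs, HEPs), and RLE size factors put Nid1 at 0.0213 (HSCs, ECs). The cause was not tested in any of these. No paired analysis was made, because the sources used here do not state which libraries came from 1 liver. That no replicate number repeats does not settle this. Fits across cell types treated all libraries as independent. With 2 libraries per group, even differences several times the SE were not called. An example is Nid2 in HSCs, at -1.01 ± 0.20 SE with an edgeR adjusted p of 0.330.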

Other observations

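Per length, the leading alpha and beta chain mRNAs of hepatocytes were outside the 10 members, at low levels, while Lamc1 led the gamma chains. Lama3, an alpha chain of epithelial laminin, had 9.05 and 8.80 CPM in HEP WT and 9.41 and 5.53 CPM in HEP KO, and made up 79.8% to 88.8% of all alpha chain RPKM in the 4 HEP libraries. Lamb3, its usual beta partner in skin, had 3.51 and 4.91 CPM in HEP WT and 2.90 and 1.69 CPM in HEP KO, which was 71.7% to 100% of the beta chain RPKM there. Neither was particular to hepatocytes. Lamb3 was at 3.70 and 5.83 CPM in EC WT, and Lama3 was at 4.40 and 4.66 CPM in EC WT, at 10.3 and 9.25 CPM in EC KO and at 0 to 1.15 CPM in HSCs. In ECs its log2 difference of KO minus WT was 1.11 ± 0.44 SE with an adjusted p of 0.309 by edgeR, so that it was not called. Lama1, the leading alpha chain of HSCs, had 213 and 242 CPM in HSC WT and 249 and 310 CPM in HSC KO, and at most 6.60 CPM in any other library.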
